A study of Mus musculus with 12 samples.

Results

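The RNA-seq comparison described here set 3 libraries of STHdhQ111 cells treated with IFNγ/LPS (Q111-T) against 3 libraries of STHdhQ7 cells given the same treatment (Q7-T). These were 6 of 12 libraries, and the other 6 came from nontreated cells of both lines (Q111-C and Q7-C). The lines are immortalized mouse striatal cells homozygous for a huntingtin gene with 111 or 7 glutamines per allele, and they serve as a cell model of Huntington's disease. Treated cells received IFNγ at 100 ng/mL together with LPS at 5 μg/mL, and RNA was taken after 24 h. Each genotype is represented by 1 cell line, so that repeat length and any other difference between the lines cannot be told apart. The libraries of a group are biological replicates in the words of the study, but the labels do not say whether they came from separate cultures, and if they did not, p-values measure technical spread only. Of 29428 genes in the table, 14952 had at least 0.5 TPM (an expression level scaled for transcript length and library total) in at least 3 of the 6 treated libraries and were tested. Genes were called as differentially expressed (DEGs) where edgeR's quasi-likelihood test gave an adjusted p (Benjamini-Hochberg) under 0.05 and the difference was at least 2-fold. Levels are given as TPM in the order of replicates 1, 2 and 3, and differences, also where a gene is called higher or lower by a number, as log2 fold changes of Q111-T over Q7-T.

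IFNγ signals through its receptor and JAK kinases, and induces IRF1, guanylate-binding proteins, MHC genes and CXCR3-ligand chemokines. LPS is recognized by TLR4 with CD14 and MD-2, and signals through MyD88 to NF-κB and through TRIF to interferon β, which then induces antiviral genes through STAT2 and IRF9. In macrophages and astrocytes the pair of stimuli induces Nos2, the inducible nitric oxide synthase, whose substrate arginine is carried into the cell by cationic amino acid transporters such as the product of Slc7a2. The comparison asks how the inflamed state of the mutant line differed from that of the wild-type line.

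The estimated counts summed to between 57505990 and 96417834 in the 3 Q7-T libraries and to between 59277158 and 76494963 in the 3 Q111-T libraries. Q7-T replicate 2 stood apart from the other two Q7-T libraries, at distances of 130.4 and 127.6 over log2(TPM + 0.5) against 51.75 between those 2. Its long transcripts were low relative to short ones, with a slope of -0.197 log2 units per doubling of transcript length, against slopes between -0.015 and 0.117 in the other 5 treated libraries. Transcripts of skeletal muscle were abundant in 3 treated libraries. The summed level of 20 such genes was 950, 3698 and 3.68 TPM in Q7-T and 22.8, 2.89 and 762 TPM in Q111-T and 573 TPM in Q111-C replicate 1. The treated libraries at 762 TPM or more and Q111-C replicate 1 are called the 4 libraries with muscle transcripts. Smaller amounts were in Q111-T replicate 1, with 10 of the 20 genes at 0.5 TPM or more, and in Q7-C replicate 2, with 41.9 TPM and 13 of the 20 genes. Of these genes Acta1, skeletal actin, stood at 153, 572 and 0.256 TPM in Q7-T and at 6.04, 0.127 and 131 TPM in Q111-T. No gene of this list was a DEG, and of 87 tested genes that among treated libraries reached 0.5 TPM only in the 3 with muscle transcripts, 0 were called higher and 1 lower. A list of 12 liver genes summed to 76.8 TPM in Q111-T replicate 2 and to between 1.68 and 3.24 TPM in the other 5 treated libraries, and to 46.5 TPM in Q7-C replicate 3, which enters the comparisons without treatment. The fit was therefore repeated without Q7-T replicate 2, with the length slope as a term, and without the 4 libraries with muscle transcripts. The last of these leaves Q7-T with 1 library, whose spread is assumed to be like that of the others.

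In treated cells, 2047 genes were higher in STHdhQ111 than in STHdhQ7 cells (13.7% of the genes tested) and 1680 were lower (11.2%). At least 8-fold differences were found for 607 of the higher and 251 of the lower genes. All 3 Q111-T values lay above all 3 Q7-T values for 2043 of the higher DEGs, against 35.1% of all genes tested, and all lay below for 1412 of the lower DEGs, against 12.3%. Since the DEGs were called from these same libraries, their separation is a description and no added evidence. It is also counted in TPM, where the median gene was higher in Q111-T (0.365 on the log2(TPM + 0.5) scale). Without treatment, 7.48% of the same genes were higher and 7.27% lower in STHdhQ111 cells. Of the genes higher in treated cells, 887 were also higher without treatment, which was 43.3% of the treated list and 79.3% of the untreated list. Of the lower genes, 715 were also lower without treatment, or 42.6% of the treated and 65.8% of the untreated list. A further 29 genes that were higher in Q111-T were lower in Q111-C, and 4 that were lower in Q111-T were higher in Q111-C. The interaction term, which tests whether the difference between the lines changed with treatment, was called positive for 3.78% and negative for 1.27% of the genes. These 565 and 190 calls were 114 and 28 without the 4 libraries with muscle transcripts, 918 and 489 with the length slope as a term and 868 and 378 with DESeq2.

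The scale of the data bears on the balance of these counts. The median gene differed by -0.028 on the log2 scale after TMM scaling, but by 0.365 on the log2(TPM + 0.5) scale. DEGs were higher in Q111-T in 54.9% of calls on the first scale and in 79.5% with limma on the second, which changes the test and the length scaling too. Within edgeR, RLE and upper-quartile factors gave 1678 and 1698 lower genes against 1680, while scaling to library totals moved the median gene to 0.182 and gave 1159 lower genes, with 68.5% of calls higher. With these medians, ratios of TPM tend to exceed the fold changes given by edgeR. Without Q7-T replicate 2, 1700 of the higher and 1133 of the lower DEGs kept their call. Without the 4 libraries with muscle transcripts these counts were 1322 and 939.

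**Figure D1:**
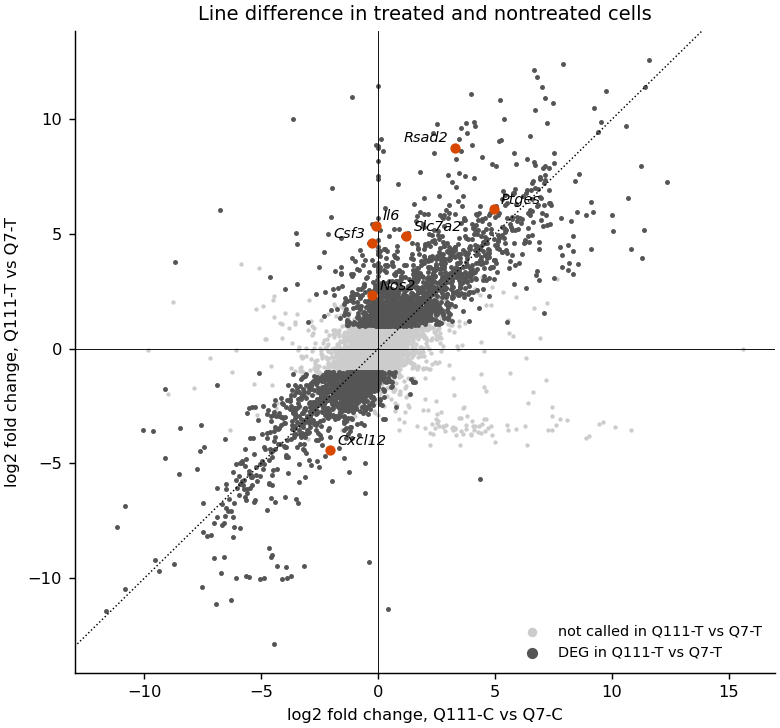
Log2 fold change of each gene tested between the treated lines (vertical axis, Q111-T vs. Q7-T) against that between the nontreated lines (horizontal axis, Q111-C vs. Q7-C), from edgeR. Grey points are genes not called and dark points are DEGs of the treated comparison, the dotted line marks equal differences, and labelled genes such as Slc7a2, Il6 and Nos2 lie above it. Of 67 genes not called that lie under -2.5 on the vertical and over 2 on the horizontal axis, 54 reached 0.5 TPM in the 3 treated libraries with muscle transcripts only.

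Among lists of genes with known roles, higher DEGs were frequent in those of inflammatory mediators, against 13.7% of all genes tested. Higher calls were made for 16 of 24 tested cytokine and receptor genes, 7 of 10 prostaglandin and other inflammatory enzymes, 20 of 33 interferon-induced effectors, 5 of 8 arginine and nitric oxide genes and 8 of 17 complement and acute-phase genes. Of the members counted, 3 cytokine, 1 prostaglandin, 4 effector and 2 complement genes reached 0.5 TPM in every Q111-T but no Q7-T library. They could be tested only because they were high in Q111-T. Others, such as Csf2, Cmpk2 and Acod1, reached 0.5 TPM in fewer than 3 Q7-T libraries and also needed Q111-T to pass. Of these 5 lists, only the last held lower calls, which were 2. In the others edgeR and DESeq2 each called 0 genes lower, and at an unadjusted p under 0.05 there were 1, 0, 1 and 1 lower genes in the order given. Without the 4 libraries with muscle transcripts, the higher calls in the 5 lists were 13, 6, 15, 4 and 5. In bulk RNA, more cells that express a gene and more RNA per cell cannot be told apart. Lists outside inflammation also held many higher calls, with 9 of 19 collagen and matrix genes and 5 of 10 fibroblast and smooth muscle markers, of which Col1a1, Col1a2, Col3a1 and Fn1 are in both counts. Higher calls were fewer for mitochondrial dynamics (0 of 12), cofactor and polyamine genes (0 of 15), antioxidant enzymes (1 of 20) and the cell cycle (2 of 20). On the log2(TPM + 0.5) scale these 4 counts were 1, 2, 8 and 5. Counts of list members given below compare with 13.7% higher and 11.2% lower over all genes tested.

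**Figure D2:**
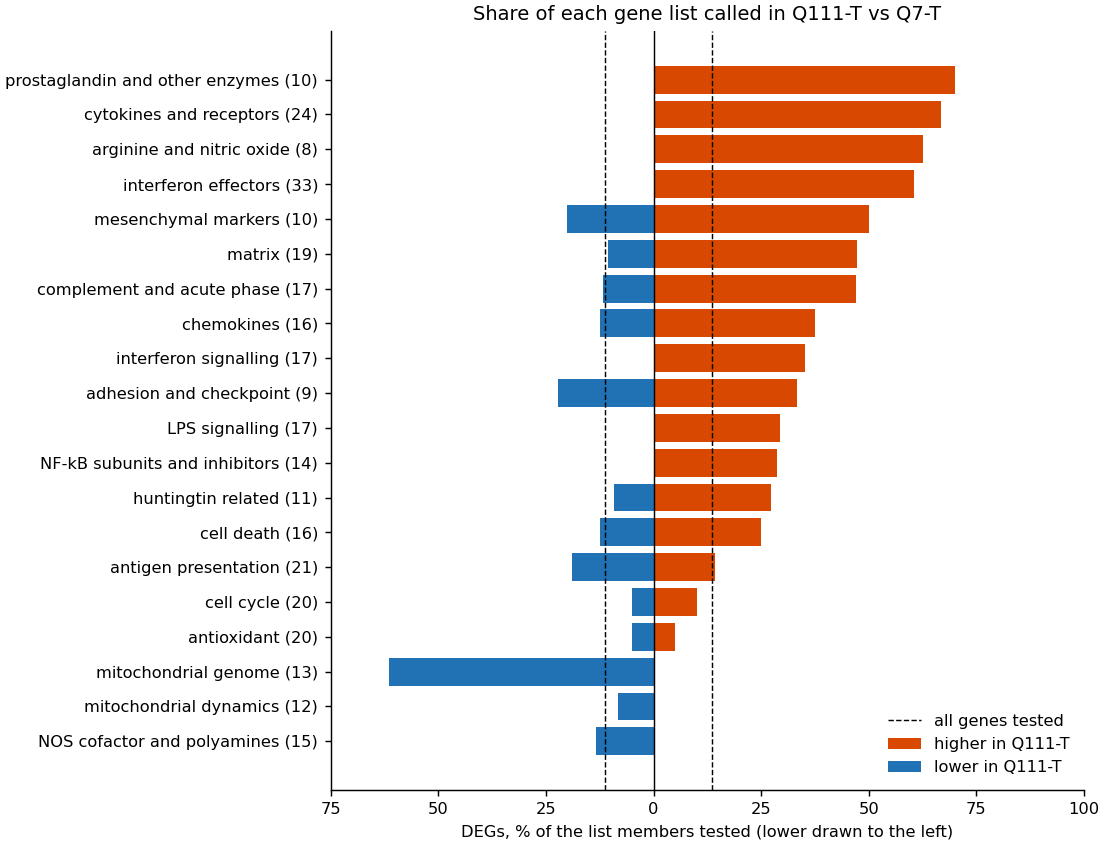
Share of the tested members of each gene list with at least 8 such members that were DEGs in Q111-T vs. Q7-T, in percent, with higher genes drawn to the right and lower genes to the left. The number of members tested stands in brackets, and dashed lines mark 13.7% and 11.2%, the shares over all genes tested. Among the lists drawn, the prostaglandin, cytokine, arginine and interferon effector lists reach furthest to the right, and the mitochondrial genome list furthest to the left.

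Genes for arginine uptake and use were higher in treated STHdhQ111 cells. Slc7a2 (ENSMUSG00000031596, GRCm38 chromosome 8, 40862396 to 40922308, plus strand), which encodes the arginine transporter CAT2, had 2.88, 0.928 and 2.17 TPM in Q7-T and 83.5, 57.3 and 83.3 TPM in Q111-T. The groups were far apart, and the log2 fold change was 4.90 (standard error, SE, 0.266, adjusted p = 3.55e-07, edgeR). The difference between the nontreated lines was 1.21, and the interaction was 3.69 (adjusted p = 0.000164, edgeR). Slc7a2 kept its call in every alternative tried. The other transporters of the family were not called. Slc7a1, the widely expressed CAT1, had 16.8, 5.28 and 14.6 TPM in Q7-T and 17.1, 10.9 and 17.5 TPM in Q111-T (log2 fold change -0.01), and Slc7a3 had a log2 fold change of 0.04. Slc7a4, an orphan member, was under the expression filter, at 0.461 to 0.588 TPM in Q7-T and 0.249 to 0.355 TPM in Q111-T.

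Nos2 (ENSMUSG00000020826, chromosome 11) had 140, 43.8 and 146 TPM in Q7-T and 817, 498 and 759 TPM in Q111-T, a log2 fold change of 2.33 (SE 0.424, adjusted p = 0.00125, edgeR). In nontreated cells it was between 0.733 and 2.58 TPM in both lines and did not pass the test. The call of Nos2 was lost without the 4 libraries with muscle transcripts, where the log2 fold change was 1.97. Azin2, an antizyme inhibitor once described as an arginine decarboxylase, had a log2 fold change of 1.68, and was higher without treatment as well. Ass1, which makes argininosuccinate in the recycling of citrulline, had 114, 124 and 130 TPM in Q7-T and 364, 356 and 338 TPM in Q111-T (log2 fold change 1.06, adjusted p = 0.00304, edgeR), and its call was lost without Q7-T replicate 1, Q7-T replicate 3 or Q111-T replicate 2. Asl, which releases arginine in the next step, did not pass the test (-0.67). Nos1, Nos3 and Otc were under the expression filter.

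**Figure D3:**
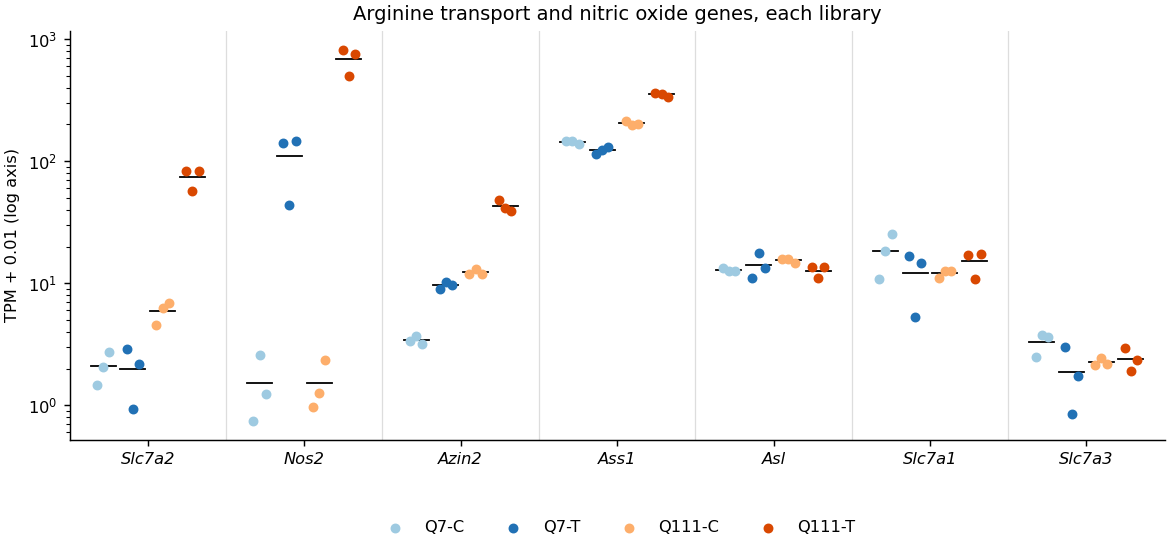
TPM + 0.01 (log axis) of 7 arginine and nitric oxide genes in each of the 12 libraries, as 3 points per group with a bar at the mean. Slc7a2, Nos2, Azin2 and Ass1 are higher in each Q111-T library than in each Q7-T library, while Asl, Slc7a1 and Slc7a3 overlap between the treated lines.

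Genes of the tetrahydrobiopterin cofactor of nitric oxide synthase and of polyamines, which are made from ornithine, held few calls. The share of lower calls was near the 11.2% of all genes tested, while 13.7% of those were higher. Of 15 genes, 0 were called higher and 2 lower (edgeR), but 2 were higher on the log2(TPM + 0.5) scale, 2 without the 4 libraries with muscle transcripts and 1 with the length slope as a term. The lower genes were the spermidine synthase Srm, with 124, 213 and 146 TPM in Q7-T and 70.2, 73.1 and 63.1 TPM in Q111-T (log2 fold change -1.75), and the spermine synthase Sms (-1.11). The call of Srm was lost with the length slope as a term, and that of Sms in 5 alternatives. Gch1, which starts cofactor synthesis, had 6.53, 4.22 and 4.92 TPM in Q7-T and 7.83, 7.24 and 6.54 TPM in Q111-T (log2 fold change 0.06), whereas in nontreated cells it was lower in STHdhQ111 (-3.37). Its interaction was 3.43 (adjusted p = 0.00137, edgeR).

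In IFNγ signalling several transcription factors differed between the treated lines. Of 17 genes, 6 were higher and 0 lower (1 at an unadjusted p under 0.05, edgeR), against 13.7% and 11.2% of all genes tested. Irf1, an early target of IFNγ, had 301, 126 and 321 TPM in Q7-T and 595, 403 and 489 TPM in Q111-T, a difference of 0.65 that was under 2-fold. The receptor chain Ifngr1 had a log2 fold change of -0.38, and its partner Ifngr2 was higher by 1.19.

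The largest difference in this list was that of Usp18, and it was also present without treatment. Usp18, an induced brake on the type I interferon receptor, had 3.03, 1.82 and 3.14 TPM in Q7-T and 198, 165 and 188 TPM in Q111-T (log2 fold change 5.72, adjusted p = 8.42e-05, edgeR). Irf7, which amplifies type I interferon production, was higher by 3.25, and Irf9, the DNA-binding partner of STAT2, by 1.75. Without treatment the differences of Usp18, Irf7 and Irf9 were 4.58, 3.95 and 2.43, all called. Irf2 was higher by 1.75 with treatment and was not called without it (0.28). The difference of Stat2 itself, 0.70, was under 2-fold. Ifnb1, interferon β, had 0.461, 0 and 0 TPM in Q7-T and 3.8, 3.39 and 2.65 TPM in Q111-T. Against the floor of 12 estimated counts per Q7-T library it was at least 5.9-fold higher, but its call was lost in 7 alternatives. It was at 0 in the 6 nontreated libraries.

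Interferon-induced effectors divided by family. In the list of 33 effectors, 20 were higher and 0 lower in Q111-T, with a median log2 fold change of 1.88 against -0.03 over all genes tested. With the length slope as a term 18 were higher and 1 lower. Of the 33, 4 (Rsad2, Oasl1, Mx1 and Oas2) reached 0.5 TPM in Q111-T alone, and Cmpk2 also needed Q111-T to pass the filter. Without treatment 20 of the 33 were higher as well, with a median of 2.28, and the median interaction was 0.04, so that the list differed between the lines in both states. The interaction was called positive for 5 of its genes. Rsad2 (viperin, an antiviral radical SAM enzyme) had 0.396, 0.25 and 0.0705 TPM in Q7-T and 159, 99.6 and 161 TPM in Q111-T (log2 fold change 8.76, adjusted p = 3.95e-05, edgeR), against a difference of 3.30 without treatment. Oasl1, a regulator of Irf7 translation, had 0.233, 0 and 0.0602 TPM in Q7-T and 39.3, 32.5 and 37.1 TPM in Q111-T (8.28), against 6.35 without treatment. These genes stayed near 0 in treated STHdhQ7 cells, and over the alternatives their sizes ranged from 6.80 to 10.58 and from 5.09 to 9.61. Cmpk2, the neighbour of Rsad2 and a mitochondrial nucleotide kinase, was higher by 7.57 (5.67 to 9.60 over the alternatives). The antiviral dynamin-like GTPases Mx1 and Mx2 were higher by 6.67 and 5.33. The 5 genes of the 2′-5′ oligoadenylate synthetase family were all higher, by 2.84 to 8.28. The 3 Ifit genes, whose products bind viral RNA, were higher by 2.16 to 4.68, and Ifit1 stood at 35.1, 11.4 and 27.8 TPM in Q7-T and at 818, 654 and 917 TPM in Q111-T. Isg15, a ubiquitin-like modifier, had 74.9, 48.9 and 61.5 TPM in Q7-T and 740, 664 and 719 TPM in Q111-T (3.11). Without treatment the differences of Ifit1 and Isg15 were 5.12 and 3.91. The RNA sensor Ddx58 (RIG-I) was higher by 2.83.

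The IFNγ-inducible GTPases, which act on vacuoles that hold pathogens, were high in both treated lines. Of 13 such genes 2 were higher, Gbp3 and Gbp7, which is near the 13.7% of all genes tested. Both calls were lost without Q7-T replicate 2, and 1 of the 13 was lower with the length slope as a term. Their log2 fold changes lay between -0.62 and 1.37 (median 0.16). Gbp2 had 1255, 797 and 1381 TPM in Q7-T and 1612, 1533 and 1848 TPM in Q111-T, and its log2 fold change was 0.16 (adjusted p = 0.544, edgeR). Igtp had 1159, 964 and 1173 TPM in Q7-T and 1052, 953 and 1121 TPM in Q111-T (-0.51), and Irgm1 had a log2 fold change of -0.11. The Gbp2 groups did not overlap in TPM, and on the log2(TPM + 0.5) scale 4 of the 13 genes were higher. Several of these genes are near-identical copies or overlap, such as Tgtp1 and Tgtp2 or Igtp and Irgm2, and reads could be split between them. The division into families was made after the values were seen.

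**Figure D4:**
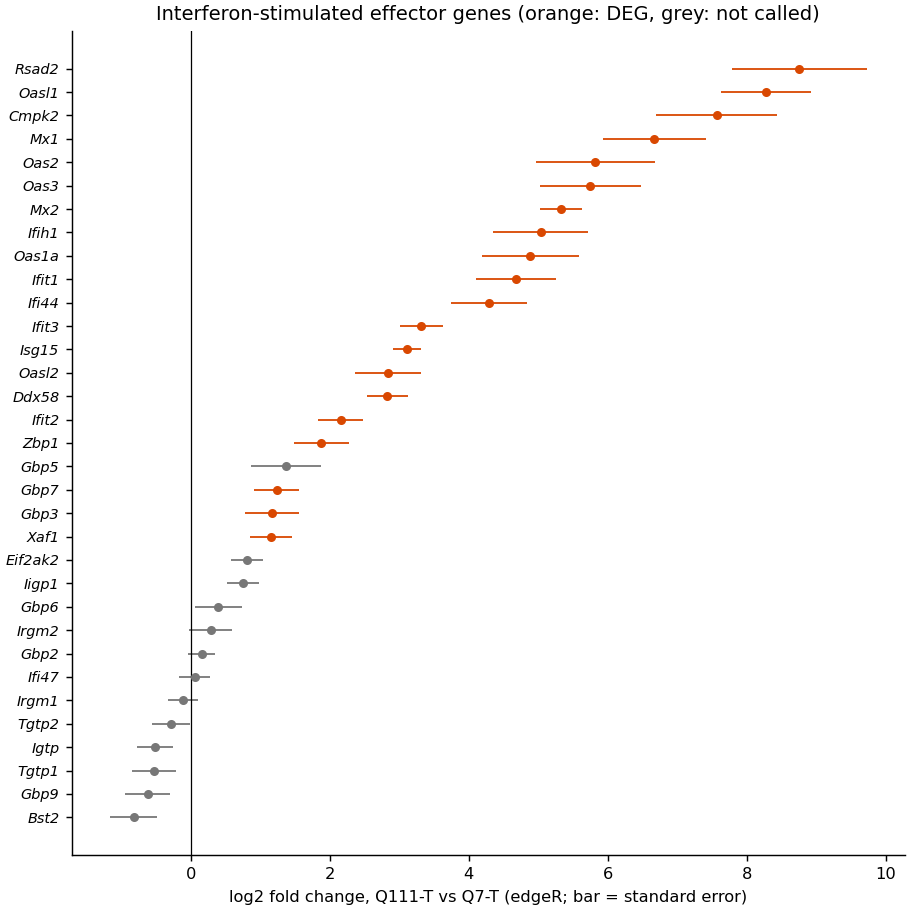
Log2 fold change with standard error of the 33 interferon-induced effector genes in Q111-T vs. Q7-T (edgeR), sorted by size. Orange points are the 20 DEGs, led by Rsad2 at 8.76 and Oasl1 at 8.28, which passed the expression filter through Q111-T alone, and grey points are genes not called, which include Gbp2, Igtp, Irgm1 and Tgtp1.

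Of the receptor complex of LPS, Cd14 and Tlr4 were higher in treated STHdhQ111 cells, while Ly96, which encodes MD-2, had a difference of 0.87 that was under 2-fold. Of 17 genes tested for LPS recognition and signalling, 5 were higher and 0 lower, against 13.7% and 11.2% of all genes tested. At an unadjusted p under 0.05 (edgeR) 2 were lower, and on the log2(TPM + 0.5) scale 9 were higher. Cd14, the co-receptor that hands LPS to TLR4, had 6.42, 6.23 and 6.81 TPM in Q7-T and 39.6, 40.1 and 39.5 TPM in Q111-T (log2 fold change 2.17, adjusted p = 5.66e-05, edgeR). Tlr4 itself had 1.89, 0.63 and 1.78 TPM in Q7-T and 6.92, 5.15 and 7.34 TPM in Q111-T (1.84). Both genes were also higher without treatment, by 2.04 and 1.49. Irak3, an inhibitor of TLR signalling, was higher by 1.40, and the deubiquitinase Tnfaip3 (A20) by 1.33. The fifth gene was Lbp, the LPS-binding protein (1.19). Without the 4 libraries with muscle transcripts the calls of Tlr4, Lbp, Irak3 and Tnfaip3 were lost, and the list held 1 higher and 1 lower gene. The adaptor Myd88 had 50.3, 21.7 and 45.3 TPM in Q7-T and 106, 86.2 and 95.9 TPM in Q111-T, and its difference of 0.95 was just under 2-fold.

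Of 14 NF-κB subunits and inhibitors, 4 were higher and 0 lower, against 13.7% and 11.2% of all genes tested. Rel, the c-Rel subunit, had 3.61, 0.597 and 3.21 TPM in Q7-T and 11.7, 9.59 and 12.2 TPM in Q111-T (log2 fold change 1.91). Nfkbia, the inhibitor IκBα that NF-κB induces, had 131, 43 and 111 TPM in Q7-T and 301, 300 and 254 TPM in Q111-T (1.29). Ikbkg, the regulatory subunit of the IκB kinase, was higher by 1.46. Nfkbiz stood at the threshold with 1.00, and its call was lost in 8 alternatives. The subunits Nfkb1 and Relb had log2 fold changes of 0.10 and 0.02.

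Cytokines were higher in treated STHdhQ111 cells across several families. Of 24 cytokine and receptor genes tested, 16 were higher and 0 lower in Q111-T, against 7 higher and 1 lower without treatment. The median log2 fold change was 2.37. Of the 24, 3 reached 0.5 TPM in Q111-T alone, and Csf2 and Il1a also needed Q111-T to pass the filter. Il6, which acts through gp130, had 21.5, 3.61 and 13 TPM in Q7-T and 574, 742 and 537 TPM in Q111-T (log2 fold change 5.36, adjusted p = 0.00156, edgeR). In nontreated cells Il6 was between 0.0648 and 2.98 TPM in both lines and the difference was -0.11. The myeloid growth factors followed the same pattern. Csf2 (GM-CSF) had 0.96, 0.0778 and 0.479 TPM in Q7-T and 33.5, 40.3 and 24.8 TPM in Q111-T (5.74), and Csf3 (G-CSF) had 0.739, 1.41 and 0.699 TPM in Q7-T and 37, 32.6 and 32.4 TPM in Q111-T (4.61). Neither differed beyond the test without treatment. Lif, a cytokine of the Il6 family, had 5.74, 1.9 and 5.06 TPM in Q7-T and 153, 112 and 125 TPM in Q111-T (4.62, adjusted p = 3.39e-07, edgeR). These differences were also called without the 4 libraries with muscle transcripts, with log2 fold changes of 5.50 for Il6, 6.05 for Csf2 and 4.52 for Lif.

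Other cytokines of the list moved in the same direction at lower levels. Il15, which supports natural killer cells, was higher by 3.97, and the death ligand Tnfsf10 (TRAIL) by 5.20, from 0.0447 to 0.0783 TPM in Q7-T to 2.68 to 3.99 TPM in Q111-T. In the interleukin-1 family, Il1a was higher by 3.14 and Il1f6 (interleukin-36α) by 3.35, with 1.78, 2.27 and 2.21 TPM in Q7-T and 28.8, 32.2 and 27.7 TPM in Q111-T. The receptor Il1r1 (2.27) and the receptor antagonist Il1rn (2.61) were higher as well. The difference of the antagonist was 4.50 without treatment, and its interaction was -1.90 (adjusted p = 0.00335, edgeR). The call of Il1a was lost without the 4 libraries with muscle transcripts.

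Among 16 chemokines tested, 6 were higher and 2 lower, against 13.7% and 11.2% of all genes tested. Of the 16, 1 reached 0.5 TPM in Q111-T alone. The higher genes were 11 on the log2(TPM + 0.5) scale and 8 with the length slope as a term. Cxcl1, which attracts neutrophils through CXCR2, had 143, 34.7 and 113 TPM in Q7-T and 2510, 2461 and 2178 TPM in Q111-T (log2 fold change 4.34, adjusted p = 1.11e-05, edgeR). Ccl5, which attracts T cells, had 29.7, 48.9 and 30.4 TPM in Q7-T and 909, 1208 and 841 TPM in Q111-T (4.24). Both were among the genes already higher without treatment, by 3.21 and 4.71. Of the CXCR3 ligands, which attract T cells, Cxcl10 had 623, 238 and 535 TPM in Q7-T and 3726, 4080 and 3524 TPM in Q111-T (2.70), Cxcl9 was higher by 1.99 and Cxcl11 by 2.44. The call of Cxcl9 was lost without the 4 libraries with muscle transcripts. Ccl2, which attracts monocytes, had 1073, 676 and 918 TPM in Q7-T and 3834, 4774 and 3047 TPM in Q111-T (1.76), and did not differ beyond the test without treatment (0.05). Its neighbour Ccl7 had a log2 fold change of 0.60 and was not called.

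Cxcl12 ran the other way. This chemokine, which holds CXCR4-bearing cells in place, had 32.4, 9.46 and 29.2 TPM in Q7-T and 1.17, 1.26 and 1.64 TPM in Q111-T (log2 fold change -4.42, adjusted p = 6.56e-07, edgeR). It was lower by -2.04 without treatment, and the interaction was -2.38 (adjusted p = 0.00205, edgeR). Cxcl16 was lower by -1.02, at 35.2, 35.8 and 31.9 TPM in Q7-T and 23.5, 22.3 and 24.2 TPM in Q111-T, and its call was lost in 12 alternatives.

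**Figure D5:**
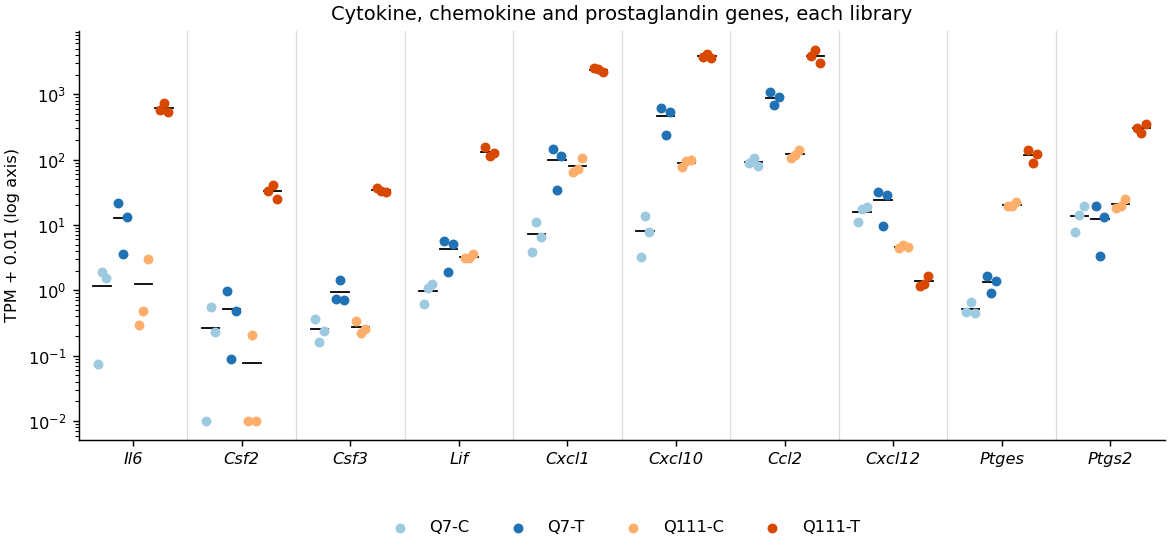
TPM + 0.01 (log axis) of 10 cytokine, chemokine and prostaglandin genes in each of the 12 libraries, as 3 points per group with a bar at the mean. Il6, Csf2 and Csf3 lie close together in the nontreated lines and apart in the treated ones, Cxcl1, Cxcl10 and Ptges are apart in both, and Cxcl12 is lower in Q111-T than in every other group.

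The promoters of Il6, Cxcl1, Cxcl10 and Rsad2 are shown as examples of higher cytokine, chemokine and effector genes whose windows hold matches to the κB motif, written GGNNNTTCC and searched on both strands. Each window is a RefSeq sequence of GRCm38.p6 from 250 bases before to 50 bases after the gene start, 5′ to 3′ on the strand of the gene, with the matches in capitals. The windows are chr5:30012864-30013163 on the plus strand for Il6, chr5:90890995-90891294 on the plus strand for Cxcl1, chr5:92348840-92349139 on the minus strand for Cxcl10 and chr12:26456403-26456702 on the minus strand for Rsad2.
Il6: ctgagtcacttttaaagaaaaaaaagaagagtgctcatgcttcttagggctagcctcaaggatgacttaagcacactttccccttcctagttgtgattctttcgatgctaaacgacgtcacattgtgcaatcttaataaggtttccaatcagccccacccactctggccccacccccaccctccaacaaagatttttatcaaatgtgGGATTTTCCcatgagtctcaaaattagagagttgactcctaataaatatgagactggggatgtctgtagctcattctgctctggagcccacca
Cxcl1: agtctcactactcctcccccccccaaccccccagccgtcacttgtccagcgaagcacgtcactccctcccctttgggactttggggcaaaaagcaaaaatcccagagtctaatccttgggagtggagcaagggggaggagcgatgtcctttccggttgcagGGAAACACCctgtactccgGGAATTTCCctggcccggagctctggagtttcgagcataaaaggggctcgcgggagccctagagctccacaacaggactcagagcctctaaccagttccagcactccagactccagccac
Cxcl10: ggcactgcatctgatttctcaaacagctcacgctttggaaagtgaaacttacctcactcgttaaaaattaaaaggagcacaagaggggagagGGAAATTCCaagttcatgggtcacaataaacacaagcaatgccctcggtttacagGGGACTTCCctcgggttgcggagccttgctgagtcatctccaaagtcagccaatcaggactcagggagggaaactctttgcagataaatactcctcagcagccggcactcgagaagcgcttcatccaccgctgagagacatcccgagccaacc
Rsad2: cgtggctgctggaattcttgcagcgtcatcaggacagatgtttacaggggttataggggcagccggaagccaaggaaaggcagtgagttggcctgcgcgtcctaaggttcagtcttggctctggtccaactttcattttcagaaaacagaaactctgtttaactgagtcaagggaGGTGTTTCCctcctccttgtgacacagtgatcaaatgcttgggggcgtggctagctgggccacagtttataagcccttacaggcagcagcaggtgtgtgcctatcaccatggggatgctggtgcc

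Il6 holds 1 κB match at -43, Cxcl1 holds matches at -89 and -70, Cxcl10 at -158 and -103 and Rsad2 at -75 from the start. None of these windows holds a match to the γ-activated site TTCNNNGAA. A match is a description of the sequence, and its share in the DEGs was close to that in all genes. The κB motif was found in the windows of 23.1% of the 1510 higher DEGs with a promoter, 21.5% of the 1108 lower DEGs, 22.2% of 10169 genes tested and 18.5% of all 27025 promoters. The γ-activated site was found in 5.76%, 7.31%, 6.84% and 8.38% of the same sets.

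Enzymes that make inflammatory lipids and metabolites and matrix proteases were also among the higher genes. Of 10 genes tested in this list, 7 were higher and 0 lower, with a median log2 fold change of 2.48. Ptges, the inducible prostaglandin E synthase, had 1.67, 0.903 and 1.39 TPM in Q7-T and 140, 90 and 123 TPM in Q111-T (log2 fold change 6.08, adjusted p = 2.75e-08, edgeR). Ptgs2 (COX-2), which supplies its substrate, had 19.7, 3.35 and 13.4 TPM in Q7-T and 302, 255 and 345 TPM in Q111-T (4.36). The pair differed in the nontreated state, where Ptges was higher by 4.95 and Ptgs2 did not pass the test (0.31). Acod1, which makes itaconate from cis-aconitate in activated macrophages, had 0.818, 0.508 and 0.443 TPM in Q7-T and 38.5, 26.4 and 39.3 TPM in Q111-T (5.45). Ch25h, which makes 25-hydroxycholesterol, was higher by 1.87. Of the matrix proteases of the list, Mmp3 was higher by 2.88 and Mmp13 by 3.67, the latter with its call lost without the 4 libraries with muscle transcripts.

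In the complement and acute-phase list, 8 of 17 genes were higher and 2 lower. C3, the hub of the cascade, had 25.2, 13.7 and 31.7 TPM in Q7-T and 181, 79.6 and 186 TPM in Q111-T (log2 fold change 2.27), and was also higher without treatment (2.89). The classical protease C1s1 (1.62), C4b (2.46) and the alternative-pathway protease Cfb (1.42) were higher too, as was the regulator Cd55 (3.97). Of these, C3, C1s1 and Cfb lost their calls without the 4 libraries with muscle transcripts, and Cd55 in 5 alternatives. Both lower genes encode secreted proteins. Ceruloplasmin, Cp, had 124, 80.2 and 134 TPM in Q7-T and 8.3, 6.91 and 9.69 TPM in Q111-T (-4.16), and the C1 inhibitor Serping1 had 57.7, 51.8 and 58.3 TPM in Q7-T and 8.32, 8.77 and 7.44 TPM in Q111-T (-3.20). Both were also lower without treatment, by -3.16 and -3.17. Lcn2, lipocalin 2, was high in both lines and was not called (0.19).

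Of 21 antigen presentation genes, 11 were higher and 0 lower in nontreated STHdhQ111 cells, against 7.48% and 7.27% of all genes tested there, whereas 3 were higher and 4 lower after treatment. The counts after treatment compare with 13.7% and 11.2% of all genes tested, and the interaction was called negative for 4 of the 21. H2-K1, a class I heavy chain, had 318, 208 and 265 TPM in Q7-T and 881, 807 and 757 TPM in Q111-T (log2 fold change 1.23), and Nlrc5, the class I transactivator, was higher by 1.19, a call lost in 6 alternatives. H2-D1, the other classical class I gene, had 718, 626 and 756 TPM in Q7-T and 1186, 1015 and 1073 TPM in Q111-T, which was not called on the TMM scale (0.21). B2m, the class I light chain, was not called either (0.68). The lower genes were H2-DMa (-1.63), the invariant chain Cd74 (-1.47), the immunoproteasome subunit Psmb8 (-1.33) and H2-T23 (-1.23). Psmb8 had 84.6, 140 and 92.2 TPM in Q7-T and 61.5, 60.2 and 60.6 TPM in Q111-T, and its interaction was -2.74 (adjusted p = 0.0135, edgeR). On the log2(TPM + 0.5) scale and with the length slope as a term, 0 of the 4 lower calls remained, and without Q7-T replicate 2 the list held 1 lower call. Class I genes are near-identical copies, so that reads may be shared between them.

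Among 9 tested adhesion and checkpoint genes, 3 were higher and 2 lower, against 13.7% and 11.2% of all genes tested. Cd80, a costimulatory ligand of T cells, had 2.32, 1.18 and 2.19 TPM in Q7-T and 72.1, 70.6 and 80.1 TPM in Q111-T (log2 fold change 4.93, adjusted p = 5.97e-08, edgeR). The checkpoint ligand Cd274 (PD-L1) had 20.6, 6.41 and 16.7 TPM in Q7-T and 68.9, 53.2 and 55.2 TPM in Q111-T (1.71), and Cd47, which restrains phagocytosis, was higher by 1.28. Vcam1, an adhesion ligand for leukocytes, was lower, with 59.8, 15.6 and 51.1 TPM in Q7-T and 15.3, 13.1 and 14.6 TPM in Q111-T (-1.85). Without treatment Vcam1 was lower as well (-2.48), and Cd80 was higher as well (2.74). Icam1 stood at 1.33 to 2.98 TPM in the 6 treated libraries and did not pass the test (-0.21).

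Of 16 tested cell death genes, 4 were higher and 2 lower, against 13.7% and 11.2% of all genes tested, and of the higher ones Aim2 and Birc3 passed the expression filter through Q111-T alone. The necroptosis kinase Ripk3 had 1.76, 1.51 and 0.873 TPM in Q7-T and 106, 116 and 109 TPM in Q111-T (log2 fold change 5.83, adjusted p = 9.57e-07, edgeR), and its substrate Mlkl had 19.4, 13.1 and 18.2 TPM in Q7-T and 313, 243 and 333 TPM in Q111-T (3.72). Without treatment both were higher too, by 6.48 and 5.06, and the interaction of Mlkl was -1.34 (adjusted p = 0.0102, edgeR). The DNA sensor Aim2 was higher by 5.41 and the apoptosis inhibitor Birc3 by 5.84, but with Q7-T near 0 these sizes ranged over the alternatives from 2.45 to 7.76 and from 3.71 to 7.08. Aim2 and Birc3 were also called higher without treatment, with Q7-C near 0 too. Casp1, the protease that matures interleukin-1β and is engaged by Aim2 inflammasomes, was lower, with 6.19, 5.37 and 6.52 TPM in Q7-T and 0.452, 0.891 and 0.848 TPM in Q111-T (-3.44).

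Htt, the gene that carries the repeat, had 4.23, 1.43 and 4.71 TPM in Q7-T and 2.48, 1.1 and 2.04 TPM in Q111-T. Its log2 fold change was -1.22 (adjusted p = 0.0128, edgeR), but the groups overlapped in TPM and the call was lost in 5 alternatives. Without treatment the difference of Htt was -1.28, also called. In the list of huntingtin partners and neurotrophic genes, 3 of 11 were higher and 1, Htt, was lower, against 13.7% and 11.2% of all genes tested. Without Q7-T replicate 2 and with the length slope as a term, 2 of the 11 were higher. Hap1, a huntingtin-associated protein, had 16.5, 4.23 and 18.4 TPM in Q7-T and 69.9, 36 and 56.2 TPM in Q111-T (1.74), but was lower in nontreated STHdhQ111 cells (-1.36), with an interaction of 3.10 (adjusted p = 0.00205, edgeR). The neuronal repressor Rest was higher by 1.06, and its call was lost in 4 alternatives. Cdkn1a (p21), an inhibitor of the cell cycle, turned in the same way as Hap1, with 146, 97.7 and 158 TPM in Q7-T and 700, 642 and 673 TPM in Q111-T (1.94) against -1.44 without treatment. Cyclin D1, Ccnd1, was lower both with (-3.04) and without treatment (-3.05), and Ccne2 was higher (1.78). These 3 genes were the DEGs among 20 cell cycle genes tested.

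Of 20 antioxidant and denitrosylation genes 2 were called, while 7 genes of the mitochondrial genome that encode NADH dehydrogenase subunits were lower. Cat, catalase, was higher, with 36.5, 14.2 and 30.9 TPM in Q7-T and 86.6, 90.1 and 97.8 TPM in Q111-T (log2 fold change 1.42), and the extracellular superoxide dismutase Sod3 was lower (-1.34), a call lost in 4 alternatives. Nqo1 and Hmox1, targets of Nrf2, had differences of 0.94 and 0.78 that were not called, and both had a positive interaction, of 1.18 and 1.83, which for Hmox1 was lost in 16 alternatives. On the log2(TPM + 0.5) scale, 8 of the 20 were higher. Of 12 genes of mitochondrial fission and fusion, Fis1 was called lower (-1.37), with 83.6, 191 and 90.9 TPM in Q7-T and 66.6, 80.9 and 63.8 TPM in Q111-T, and lost that call in 14 alternatives. The fission GTPase Dnm1l (0.24) and the fusion genes Mfn2 (-0.35) and Opa1 (-0.13) were not called. Of 13 protein genes of the mitochondrial genome, 8 were lower and 0 higher, against 11.2% and 13.7% of all genes tested. The 7 genes of NADH dehydrogenase subunits were all among the lower ones, by -2.78 to -1.13, while of the other 6 only mt-Cytb was called. Of these subunit genes, mt-Nd5 and mt-Nd6 overlap on opposite strands. Thus mt-Nd1 had 15696, 18654 and 16885 TPM in Q7-T and 4260, 7170 and 5165 TPM in Q111-T (-2.08), and the oxidase subunit mt-Co1 had a log2 fold change of 0.03. The number of lower calls among the 13 was 3 on the log2(TPM + 0.5) scale, 3 with the length slope as a term and 4 without Q7-T replicate 2. In nontreated cells 7 of the 13 were lower in STHdhQ111, with a median log2 fold change of -1.19 against -1.18 with treatment. The interaction was called for 0 of the 13.

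The labels describe both lines as striatal neuronal cells, and their markers were checked. Of 12 neuron markers 4 passed the expression filter, and Snap25, a synaptic protein of mature neurons, was listed at 0 in the 6 treated libraries. Stmn2, a growth cone protein, had 80.4, 72.9 and 82 TPM in Q7-T and 2.45, 2.03 and 2.77 TPM in Q111-T (log2 fold change -5.47), and Tubb3 was lower by -1.99. Map2 was called higher by 1.12, which was lost in 6 alternatives. Of 12 markers of medium spiny neurons, the principal cells of the striatum, 2 passed the filter, and neither was called. Microglia and macrophage markers summed to 11.9 to 18.2 TPM in Q7-T and 46.1 to 62.5 TPM in Q111-T. Only Cd68, a lysosomal protein found beyond macrophages, was called (1.55), and P2ry12 and Ptprc were at 0. No endothelial marker passed the filter, and of 3 epithelial markers Krt8 was lower (-4.33), at 1.9 TPM at most. Krt18 had 0, 1.34 and 0.157 TPM in Q7-T and 3.48, 4.1 and 4.91 TPM in Q111-T, which did not overlap but was not called (2.26), and 2 epithelial markers were called higher with the length slope as a term.

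Progenitor and mesenchymal markers separated the lines with and without treatment. Of 7 progenitor markers tested, 4 were lower and 0 higher (2 at an unadjusted p under 0.05, edgeR, and 1 called with the length slope as a term). The transcription factors Pax6 and Sox2 were lower in Q111-T by -6.74 and -2.56, and the intermediate filament Nes by -3.25. Vim, another filament gene, was called lower (-1.07), which was lost in 9 alternatives. Of 10 tested fibroblast and smooth muscle markers, 5 were higher and 2 lower. Acta2, smooth muscle actin, had 1597, 1491 and 1660 TPM in Q7-T and 28.6, 31 and 34.6 TPM in Q111-T (-6.10), and Tagln was lower by -5.52. Pdgfra, which marks oligodendrocyte precursors as well as fibroblasts, was higher by 3.17, and Sox9, Slc1a3 and Gja1 were the 3 astrocyte markers called higher (2.49, 1.22 and 1.06), the last 2 with their calls lost in 3 alternatives each, while Gfap was at 0.33 TPM at most. Of 19 collagen and matrix genes, 9 were higher and 2 lower. These counts were 8 and 4 without Q7-T replicate 2 and without the 4 libraries with muscle transcripts, and 7 and 5 with the length slope as a term. Col1a2, a chain of type I collagen, had 5.16, 2.44 and 4.9 TPM in Q7-T and 45.4, 28.5 and 46.5 TPM in Q111-T (2.89), and the cross-linking enzyme Lox was higher by 2.97. Tnc, tenascin C, was lower by -2.60. The part of these line differences in the inflammatory ones was not tested.

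Some of the most different genes were outside these lists. Among genes with at least 5 TPM in 1 group, Ppbp, a neutrophil-attracting CXC chemokine, had 1.22, 0.379 and 0 TPM in Q7-T and 209, 295 and 203 TPM in Q111-T (log2 fold change 8.52, adjusted p = 0.00015, edgeR). Against the floor of 12 estimated counts per Q7-T library, Nts, the neuropeptide neurotensin, was at least 45.4-fold higher, the serum protein gene Itih2 at least 47.5-fold, Aplp1, a relative of the amyloid precursor protein, at least 40.3-fold, the homeobox gene Nkx2-9 at least 32.6-fold and H60b, a ligand of the NKG2D receptor, at least 16.2-fold. H60b overlaps Raet1e on the same strand. Of these, Nts was the gene at or under 0.182 TPM in all nontreated libraries. In the other direction, the potassium channel partner Kcnip1 was at least 349-fold lower in Q111-T, the zinc finger factor Sall1 at least 142-fold, the homeobox factor Cdx2 at least 105-fold, and the epidermal envelope genes Sprr2b and Sprr2h at least 73-fold and 49.8-fold. Sox11, a neural transcription factor, was lower by -7.77.

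The genes with the largest interaction terms included some that were low in both nontreated lines and some that changed direction. Serpina3h, a serine protease inhibitor of a multigene family, had 87.4, 59.5 and 99.6 TPM in Q7-T and 3.22, 3.13 and 3.88 TPM in Q111-T (log2 fold change -4.98), but 1.27 to 2.25 TPM in the 6 nontreated libraries. The epithelial transcription factors Grhl3 and Zfp750 were higher in Q111-T by 3.78 and 4.23 and lower in Q111-C, where Grhl3 was at 0 in all 3 libraries. Angptl4, an inhibitor of lipoprotein lipase, was higher by 1.15 with treatment, a call lost without Q7-T replicate 1, and by 5.52 without treatment. Ccn5, a matrix signalling protein, was lower with treatment (-2.54) and was not called without it.

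KEGG pathways with at least 20 tested genes were described by their shares of DEGs. The share of higher genes was largest for complement and coagulation cascades, with 18 of 30, against 14.5% of the 4957 annotated genes, of which 11.6% were lower. Beside complement genes it included the plasminogen activators Plau and Plat and the coagulation factors F5 and F8. Cytokine-cytokine receptor interaction held 58 higher and 9 lower genes of 127, and protein digestion and absorption, whose higher genes were largely collagens, 16 higher of 38. The share of lower genes was largest for RNA polymerase, with 10 lower and 0 higher of 28, and was 23 of 72 for ribosome biogenesis, which included the snoRNP proteins Fbl, Nop56 and Dkc1. On the log2(TPM + 0.5) scale these fell to 3 and 8 lower genes, while the lower genes among all annotated ones fell from 575 to 232, and with the length slope as a term to 4 and 17. The pathway systemic lupus erythematosus held 20 lower genes of 70, most of them histone genes, and 14, 9 and 6 lower genes on the log2(TPM + 0.5) scale, with the length slope as a term and without the 4 libraries with muscle transcripts. In the last of these settings complement and coagulation cascades held 11 higher genes.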

How the data were processed

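Poly(A) RNA of STHdhQ7 and STHdhQ111 cells was sequenced as paired reads from stranded TruSeq libraries. Per the labels and the methods of the study, the authors trimmed reads with Cutadapt, aligned them with HISAT2 to GRCm38 and quantified genes with StringTie. The authors deposited estimated counts and TPM values for 29428 genes in 12 libraries. Low estimated counts favour multiples of 4 in every library, so that 1 read pair probably counts as about 4, and genes that did not exceed 12 estimated counts in any library of a group were taken as undetected in it. Such floors cover counting error only. Whether counting used strand is not given in the sources used here, so reads of genes that overlap on opposite strands may be shared. Of the identifiers, 29344 are in GENCODE M21.

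Counts were rounded and tested with edgeR 4.0.16 (R 4.3.3) by its quasi-likelihood test, with TMM scaling and 1 mean per group in a fit of all 12 libraries. The contrasts were Q111-T vs. Q7-T, Q111-C vs. Q7-C and their difference (the interaction), with Benjamini-Hochberg adjustment over 14952 genes. The test was also run on simulated counts with known changes, and the outcome is not reported here. The 28 alternatives included DESeq2 1.42.0, limma 3.58.1 on log2(TPM + 0.5), other scalings, filters and pseudocounts, and leaving out each library. Of the 28, 3 were added after seeing the data. These were the length slope as a term, leaving out the 4 libraries with muscle transcripts, and leaving out 3 libraries whose slopes stood apart within their own groups. Those 3 were Q7-C replicate 1 (-0.142), Q7-T replicate 2 (-0.197) and Q111-T replicate 2 (0.014, against 0.099 and 0.117 in its group). Figures were drawn with matplotlib 3.10.9.

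The comparison and the gene lists were chosen with earlier results of these data known, and the muscle and liver lists after their values were seen. Genes are named as the whole arginine list, in each other list the up to 4 DEGs with the largest differences and the most abundant gene, the 8 highest and 8 lowest DEGs, the 6 highest and 6 lowest interactions among DEGs, the 6 most abundant DEGs, and Htt, besides 49 list members chosen after their values were seen. Some genes that these rules name are not reported here. Promoter windows came from RefSeq tables of GRCm38.p6. No 2 replicates were alike within sampling noise.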

Additional observations from a re-analysis of the deposited data

Results flagged for a closer look

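For 48 of the genes named, the difference between the lines changed with treatment by the interaction term of the edgeR fit (adjusted p under 0.05 and at least 1 on the log2 scale), which tests that change itself. Values are log2 interaction terms, positive where Q111 minus Q7 was larger with treatment. Of these genes, Slc7a2 (3.69), Lif (3.17), Cd80 (2.18), Ptgs2 (4.05), Hap1 (3.10), Cdkn1a (3.37), Serpina3h (-4.42), Angptl4 (-4.38), Ccn5 (-3.32), Grhl3 (12.47), Zfp750 (6.54) and Csf3 (4.85) kept the call in every alternative, which makes 12. The calls lost most often were those of H2-D1 (17 alternatives), Hmox1 and Map2 (16 each) and Cxcl11 and Cfb (15 each). The values of Grhl3, Sprr2b (-8.42), Nts (8.46), Csf2 (7.74) and Acod1 (5.51) rest on groups near 0 and depend on how the fit treats low counts, so that they are no measure of size.

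Among inflammatory mediators, the term was positive for Nos2 (2.59), Il6 (5.47), Ccl2 (1.70), Cxcl9 (2.22), Cxcl11 (2.21), Ptges (1.12), C1s1 (1.94), C4b (1.85) and Cfb (1.84). The calls of Il6 and C4b were lost in 10 alternatives each, that of Ptges in 8 and that of Nos2 in 7. Antiviral effectors followed with Rsad2 (5.46), Cmpk2 (4.60), Mx1 (4.06) and Mx2 (2.53), of which the first 3 were also near 0 in both Q7 groups and carry the same limit on size, and the factor Irf2 had 1.46. Enzymes of redox and cofactor metabolism, Gch1 (3.43), Hmox1 (1.83), Nqo1 (1.18), Sod2 (1.16) and the cystine transporter Slc7a11 (1.33), were positive as well, without being DEGs between the treated lines. Ccne2 (1.79) and Map2 (1.81) complete the positive terms.

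The term was negative for H2-D1 (-1.07), Psmb8 (-2.74), Cxcl12 (-2.38), Cxcl16 (-1.50), Il1rn (-1.90) and Mlkl (-1.34). It was also negative for Sms (-1.04), the glutamate transporter Slc1a3 (-1.97), Pdgfra (-1.37), Lrrc17 (-3.33) and the adhesion gene Amigo2 (-3.32). These sets were named after the values were seen, and no explanation was tested.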

How the results depend on the processing

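The numbers of DEGs between the treated lines kept within 1.5 times under most settings. Exceptions among the lower genes, against 1680, were limma on log2(TPM + 0.5) with 749, on log2(TPM + 1) with 623 and on log2(TPM + 0.1) with 821 (3123 higher, against 2047), and the fit without the 4 libraries with muscle transcripts with 1067. No DEG was called in the opposite direction in the alternatives compared gene by gene. The interaction, with 565 positive and 190 negative calls, moved more, to 868 and 378 with DESeq2, 918 and 489 with the length slope as a term, 1142 and 410 without the 3 libraries whose slopes stood apart, and 114 and 28 without the 4 libraries with muscle transcripts. The cause was not tested, and the last 2 settings have fewer libraries. With each library left out in turn, there were 1863 to 2215 higher, 1274 to 1973 lower, 380 to 733 positive and 134 to 268 negative calls, and 1409 to 1684 DEGs shared in direction with the nontreated lines. The lowest count of lower genes, 1274, was without Q7-T replicate 2. The replicate block gave 2008 higher and 1584 lower DEGs and 469 and 157 interaction calls, but the labels do not say whether replicate numbers pair the samples. Deviations of same-numbered libraries correlated between -0.61 and 0.48, which with 3 libraries per group cannot decide this. Of 139 named DEGs, 96 kept their call in every alternative, and 31 lost it without the 4 libraries with muscle transcripts, 23 with the length slope as a term and 17 without Q7-T replicate 2. With that term, Fis1 turned from -1.37 to 0.08 and Bax from -0.22, not called, to 1.02. Depth limits genes near 12 estimated counts per library.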
